A study of Mus musculus with 24 samples.

Results

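The 7 genes described here, Clec4f, Vsig4, Cd5l, Folr2, Cdh5, Clec1b and Fcna, are genes by which Kupffer cells (KCs), the resident macrophages of the liver, are commonly told apart from other tissue-resident macrophages (TRMs). The list of names was set with earlier results of these data known, no threshold on a value was used, and all 7 were found among the 45706 genes of the count table. RNA-seq was performed on 4 populations of TRMs from female C57BL/6J mice aged 8 to 12 weeks: microglia (MG) from brain, KCs from liver, peritoneal macrophages (PMs) and alveolar macrophages (AMs) from lung. Each population was either FACS sorted directly from tissue (ex vivo) or kept in culture as TRM-like cells (in vitro: MG-LCs, KC-LCs, PM-LCs and AM-LCs), which gave 8 groups of 3 libraries. The series calls the 3 libraries of a group biological replicates, but whether a replicate number marks the same animals in different groups is not stated. The labels name no allele beside the strain and no treatment beside the culture itself.

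The KC gate took TIM-4+ cells that were also positive for CD45, CD11b and F4/80, so that the protein of Timd4, but of none of the 7 genes, was part of the gate. MG were gated on CD45 and CD11b, PMs on CD45, CD11b, F4/80 and CD115, and AMs on CD45, CD11b and SiglecF. The cultures were not sorted. Whole cell suspensions of the organs were plated, with pooled mice for brain, lung and peritoneal lavage and a single liver for each KC-LC flask. KC-LCs and PM-LCs received M-CSF, MG-LCs received M-CSF and IL-34, and AM-LCs received GM-CSF without glucose at atmospheric oxygen, so that tissue and medium cannot be told apart where AM-LCs or MG-LCs are compared with KC-LCs.

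KCs line the liver sinusoids, where they take up bacteria, immune complexes, worn-out blood cells and modified lipoproteins. Their identity is known to be imposed by neighbouring cells: Notch ligands from sinusoidal endothelium, TGF-beta and BMP family signals, and sterol ligands of the nuclear receptor LXR-alpha (encoded by Nr1h3) act together with the transcription factors SPIC, ID1, ID3 and MAF. Among the 7 genes, Clec4f encodes a C-type lectin that binds galactose-type glycans and is the most KC-restricted marker in the mouse. Clec1b encodes CLEC-2, a receptor for podoplanin that platelets also carry. Vsig4 encodes CRIg, a receptor for C3b-coated particles known from KCs and peritoneal macrophages. Fcna encodes ficolin A, a secreted recognition molecule of the lectin pathway of complement, and Cd5l encodes a secreted scavenger receptor protein (AIM) that travels bound to IgM. Folr2 encodes the folate receptor beta and Cdh5 encodes VE-cadherin, the adherens junction protein of endothelium.

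The gene counts of a library summed to 29569486 to 47105111 (median 35965750). Levels are given as CPM, the reads of a gene relative to the size of its library, normalised by the TMM method over all 24 libraries, and a ± value is the SD over the 3 libraries of a group. A library without a read of a gene allows a level of up to 0.0661 to 0.115 CPM, depending on the library (3 reads, counting error only). Some libraries stood apart from their group. Sorted KC replicate 1 held 213 CPM of 7 summed T and NK cell genes, against 24.2 and 18.7 CPM in replicates 2 and 3. Of 8 summed fibroblast and mesothelium genes, MG-LC replicate 1 held 30979 CPM, PM-LC replicate 2 held 2209 CPM and AM-LC replicate 3 held 1668 CPM. Calls that changed without one of these libraries are given beside the results.

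On the assembly GRCm38 (mm10), with GENCODE coordinates, Clec4f lies on chromosome 6 from 83644542 to 83656187, Clec1b on chromosome 6 from 129397297 to 129409335, Vsig4 on chromosome X from 96247203 to 96293438 and Fcna on chromosome 2 from 25624666 to 25628030. Cd5l lies on chromosome 3 from 87357881 to 87371073, Folr2 on chromosome 7 from 101839988 to 101857194 and Cdh5 on chromosome 8 from 104101625 to 104144511. All are protein-coding. Of the exonic bases of Folr2, 63.1% overlap the antisense gene Gm10602, those of Fcna overlap the antisense gene Fcnaos by 6.55%, and those of Clec1b overlap Clec9a, its neighbour on the same strand, by 3.61%. The library kit does not mark strand, so reads in these stretches cannot be told apart. No library held more than 68 reads of Gm10602 or 99 of Fcnaos. How reads over both genes were counted is not given, so these counts do not bound the effect on Folr2 or Fcna. A level of Folr2 that is too low, also per kilobase, is possible. Clec9a reached 115 CPM in sorted KC replicate 1 and 31.2 and 24.7 CPM in the other sorted KC libraries, below the level of Clec1b in each of them.

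Because these 4 genes shared the highest levels in sorted KCs, the bases before their starts are shown here. They are the RefSeq promoter windows (GRCm38.p6), read along the gene, cut where the first GENCODE transcript begins. Capitals mark matches to any of 4 motif cores searched on both strands: GGAAGT of ETS factors such as PU.1, TGGGAA of the Notch effector RBPJ, TGCTGA of MAF factors and AGGTCA of nuclear receptors.
Clec4f, chr6:83656188-83656366, minus strand: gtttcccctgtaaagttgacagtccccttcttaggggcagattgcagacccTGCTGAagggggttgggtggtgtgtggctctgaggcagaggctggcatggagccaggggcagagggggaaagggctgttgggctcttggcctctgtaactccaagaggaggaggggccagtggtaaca
Cd5l, chr3:87357631-87357880, plus strand: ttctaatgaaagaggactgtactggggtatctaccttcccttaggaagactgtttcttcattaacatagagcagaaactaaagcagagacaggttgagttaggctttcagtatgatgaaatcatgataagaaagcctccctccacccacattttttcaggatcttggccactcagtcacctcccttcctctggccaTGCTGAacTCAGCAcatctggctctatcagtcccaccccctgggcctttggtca
Fcna, chr2:25628031-25628224, minus strand: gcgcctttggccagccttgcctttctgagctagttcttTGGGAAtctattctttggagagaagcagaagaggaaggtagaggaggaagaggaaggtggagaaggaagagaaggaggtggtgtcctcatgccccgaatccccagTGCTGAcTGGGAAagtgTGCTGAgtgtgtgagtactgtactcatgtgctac
Vsig4, chrX:96293439-96293688, minus strand: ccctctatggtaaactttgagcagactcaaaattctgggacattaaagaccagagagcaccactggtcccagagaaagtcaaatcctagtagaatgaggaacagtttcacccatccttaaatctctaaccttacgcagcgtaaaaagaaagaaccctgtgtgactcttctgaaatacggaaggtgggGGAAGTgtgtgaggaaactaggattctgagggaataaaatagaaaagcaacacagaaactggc

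The MAF core stood in 3 of these 4 windows, in 2 copies each in Cd5l and Fcna, and was held by 16.1% of all 32851 RefSeq promoter windows over the 250 bases before the start. Counted over those 250 bases, Clec4f also held 1 match to each of the ETS, RBPJ and nuclear receptor cores, 33, 35 and 22 bases before the RefSeq start, which lie inside the GENCODE transcript and are not shown. The RBPJ match TGGGAA and the ETS match GGAAGT overlap there. The shares of all windows were 19.7% for the ETS core, 21.6% for the RBPJ core and 14.0% for the nuclear receptor core. The RBPJ core stood in 2 copies and the ETS core in 1 in Fcna, and the ETS core in 1 in Vsig4. The ETS match of Fcna, 14 bases before the RefSeq start, also lies inside the GENCODE transcript and is not shown. Of the 2 Folr2 windows, the first held 2 ETS cores and 1 MAF core and the second held 1 MAF core. The Clec1b window held none of the 4. These are matches of letters, not binding sites, and the files hold no measure of binding.

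All 7 genes were highest in sorted KCs. Together they summed to a mean of 25081 CPM in sorted KCs (range over the libraries 17300 to 28995). The sum was 149.63 CPM in KC-LCs (73.677 to 237.17), 3376.8 CPM in sorted PMs (3024.8 to 3774.3) and 1436.6 CPM in PM-LCs (852.25 to 2105.8). Per kilobase of exon, the mean level in sorted KCs was 4751 CPM for Clec4f, 2916 for Cd5l, 2134 for Fcna, 1785 for Vsig4, 725 for Folr2, 93.3 for Clec1b and 54.3 for Cdh5. On that scale Clec4f ranked 6 and Cd5l 8 among the 21414 genes with a read in sorted KCs. In KC-LCs the order per kilobase was different, with Folr2 first at 55.7 CPM, followed by Cd5l at 21.8 and Fcna at 13.4, while Clec1b, Vsig4, Clec4f and Cdh5 were between 0.00595 and 0.134 CPM.

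**Figure D1:**
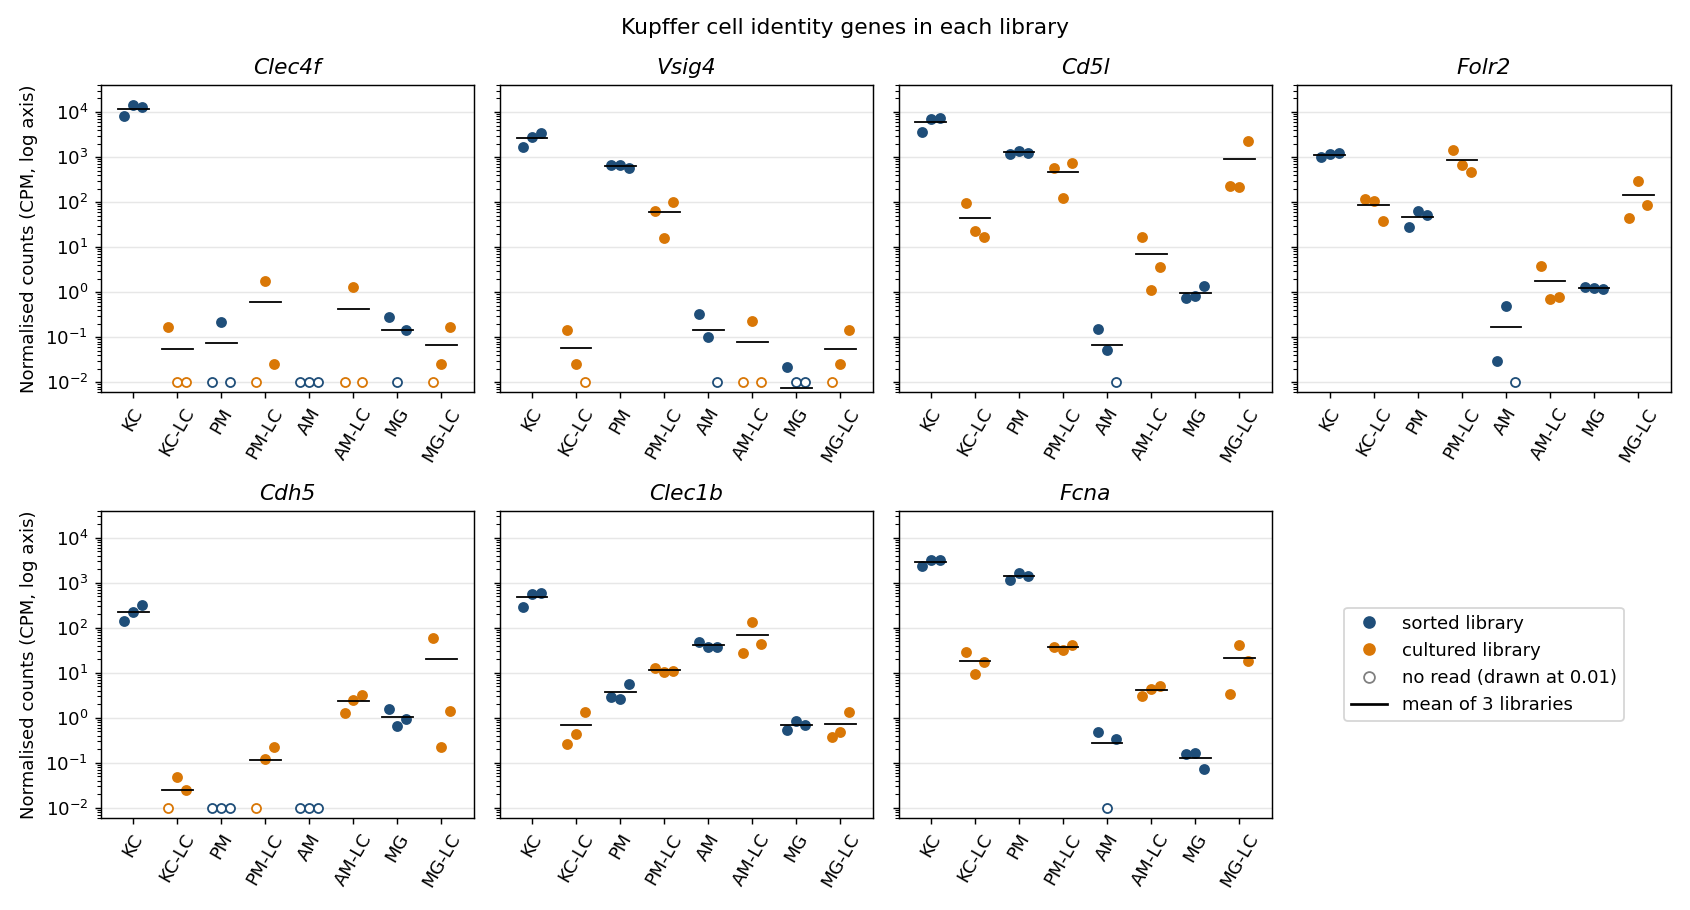
Normalised counts (CPM, log axis) of the 7 Kupffer cell identity genes in the 24 libraries, sorted libraries in blue and cultured libraries in orange, with a line at the mean of each group of 3 and open symbols at 0.01 for libraries without a read. Every gene has its highest mean in sorted KCs, Clec4f above 8154 CPM in each, whereas Folr2 in PM-LCs reaches 1430 CPM and overlaps with sorted KCs.

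All 7 genes were significantly higher in sorted KCs than in KC-LCs by edgeR's quasi-likelihood test, with an adjusted p under 0.05 taken as a call. Among all 13629 genes tested in this comparison, 19.4% were called higher in sorted KCs. Their median log2 fold change was 9.47, beside 0.01 for all genes tested, and the sorted and cultured libraries overlapped for none of the 7 (the libraries did not overlap for 54.1% of all genes tested). In these bulk samples, fewer KCs among the cultured cells and less RNA of a gene per cell cannot be told apart. Pan-macrophage genes were present in both groups: 12 summed genes including Adgre1, Csf1r and Lyz2 lay between 28242 and 39596 CPM in sorted KCs and between 33545 and 69823 CPM in KC-LCs, with each of the 12 above 1 CPM in both. Lyz2 took 64.6% of the mean sum in KC-LCs. It was at 5987.3, 8364.6 and 5659.5 CPM in sorted KCs and 20200, 37240 and 47711 CPM in KC-LCs. Csf1r went the opposite way, from 4174.5, 6991.9 and 9903.7 CPM to 2020, 1889 and 2669 CPM. Of the 12 genes, 3 were called higher in sorted KCs, 4 were called lower and 5 were not called. The sum therefore cannot tell whether the macrophage content was kept.

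Clec4f was at 8155, 14052 and 13012 CPM in sorted KC replicates 1, 2 and 3, and at 0.168, 0 and 0 CPM in KC-LCs, where 7 reads were counted in all. KC-LCs thus lacked the defining marker of KCs in 2 of 3 libraries, at a depth at which 3 reads would be under 0.115 CPM. The ratio of the means was 209580 (95% counting interval 98834 to 506510), and the fitted log2 fold change was 17.60 (SE 1.19, adjusted p = 0.000182). In the other groups, Clec4f was at 0, 0.218 and 0 CPM in PMs, 0 in all 3 AM libraries, and 0.286, 0 and 0.143 CPM in MG. The PM-LCs held 0, 1.81 and 0.0253 CPM, the AM-LCs 0, 1.30 and 0 CPM and the MG-LCs 0, 0.0249 and 0.171 CPM. Below sorted KCs, the libraries of each group overlapped with those of the next group in the order of means, so that no order among these 7 groups can be given.

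Clec1b, the podoplanin receptor, was at 293, 552 and 583 CPM in sorted KCs and at 0.264, 0.449 and 1.34 CPM in KC-LCs, which kept 0.144% of the sorted level (log2 fold change 9.47, SE 0.76, adjusted p = 0.000311). AMs were second, with 49.3, 37.0 and 37.0 CPM in sorted AMs and 28.3, 134 and 43.3 CPM in AM-LCs, so that both states overlapped. Sorted PMs held 2.94, 2.59 and 5.53 CPM and PM-LCs 13.1, 10.4 and 11.3 CPM. Clec1b is therefore not confined to KCs in these libraries, and KC-LCs, with MG and MG-LCs at 0.385 to 1.34 CPM, formed the low end of the order. Because platelets carry CLEC-2, platelet genes are given beside it: without Pf4, which macrophages also express, 7 platelet genes summed to 0, 0 and 2.20 CPM in sorted KCs and to 0.153 to 0.209 CPM in sorted AMs.

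Vsig4, the complement receptor, was at 1699, 2805 and 3441 CPM in sorted KCs and at 0.144, 0.0249 and 0 CPM in KC-LCs, from 7 reads in all. The ratio of the means was 47029 (95% counting interval 22298 to 114280), with a log2 fold change of 15.45 (SE 0.94, adjusted p = 0.000169). PMs were the only other population with a substantial level, at 663, 666 and 567 CPM sorted and 62.0, 16.1 and 101 CPM in PM-LCs, with no overlap between the states. No AM, AM-LC, MG or MG-LC library was above 0.329 CPM. PM-LCs thus held 1060 times the mean of KC-LCs (counting interval 503 to 2576), and every PM-LC library lay above every KC-LC library.

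Fcna, encoding ficolin A, followed the same order at the top. It was at 2424, 3232 and 3138 CPM in sorted KCs, 28.8, 9.27 and 17.1 CPM in KC-LCs, 1132, 1687 and 1453 CPM in sorted PMs and 38.3, 32.5 and 42.2 CPM in PM-LCs. KC-LCs kept 0.627% of the level of sorted KCs (log2 fold change 7.35, SE 0.55, adjusted p = 0.000269) and PM-LCs kept 2.64% of that of sorted PMs (log2 fold change 5.24, SE 0.24, adjusted p = 3.03e-05). Sorted AMs and MG held at most 0.478 CPM, whereas their cultures reached 3.10 to 4.99 CPM in AM-LCs and 3.31, 42.0 and 18.7 CPM in MG-LCs. In the order of means, PM-LCs, MG-LCs and KC-LCs were neighbours, and MG-LCs overlapped with both.

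Cd5l, the secreted IgM-bound scavenger protein, was at 3610, 6921 and 7280 CPM in sorted KCs and 93.6, 22.6 and 16.7 CPM in KC-LCs, which kept 0.746% (log2 fold change 7.11, SE 0.86, adjusted p = 0.00151). In PMs it was at 1199, 1355 and 1255 CPM sorted and at 563, 124 and 720 CPM in PM-LCs, a difference that did not pass the test (adjusted p = 0.0943). In MG the direction was opposite, from 0.727, 0.839 and 1.36 CPM sorted to 223, 214 and 2234 CPM in MG-LCs. Replicate 3 of the MG-LCs set the high mean of that group, which overlapped with both sorted PMs and PM-LCs. Cultured MG-LCs therefore held more Cd5l than KC-LCs in every library. AM-LCs held 16.5, 1.15 and 3.55 CPM and sorted AMs at most 0.149 CPM.

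Folr2, the folate receptor, was the member with the smallest difference. It was at 981, 1159 and 1222 CPM in sorted KCs and at 114, 106 and 38.5 CPM in KC-LCs, which kept 7.69% (log2 fold change 3.74, SE 0.45, adjusted p = 0.00148). In PMs it rose in culture, from 27.4, 64.3 and 51.3 CPM to 1430, 668 and 476 CPM, a range that overlapped with that of sorted KCs. MG-LCs held 45.3, 295 and 84.9 CPM, against 1.19 to 1.32 CPM in sorted MG. AM-LCs held 3.82, 0.687 and 0.790 CPM and sorted AMs 0.0299, 0.486 and 0 CPM. The libraries of MG-LCs overlapped with those of KC-LCs, and KC-LCs with sorted PMs.

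Cdh5, encoding VE-cadherin, was at 139, 228 and 318 CPM in sorted KCs and at 0, 0.0498 and 0.0252 CPM in KC-LCs, where 3 reads were counted in all. The ratio of the means was 9128 (95% counting interval 3163 to 44827) and the log2 fold change 13.03 (SE 0.69, adjusted p = 0.000109). No read was counted in any sorted PM or AM library, so that sorted KCs were at least 2277-fold and 2547-fold higher (floor of 3 reads per library). Sorted MG held 1.59, 0.649 and 0.931 CPM, AM-LCs 1.31, 2.52 and 3.30 CPM and PM-LCs at most 0.228 CPM. MG-LCs held 60.9, 0.224 and 1.43 CPM, and the high value was that of replicate 1, in which the fibroblast and mesothelium genes were also highest. The endothelial gene Egfl7 was highest there too, at 10.1, 0.349 and 0.886 CPM in MG-LC replicates 1, 2 and 3. The whole endothelial list was not, at 25.9, 32.9 and 16.6 CPM. The source of this Cdh5 value was not tested.

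Since endothelium expresses Cdh5, its marker genes are given beside it. The 10 endothelial genes summed to 261, 352 and 359 CPM in sorted KCs, of which the scavenger receptor gene Stab2 took 93.0% of the mean. Stab2, a gene of sinusoidal endothelium, was at 203, 343 and 358 CPM in replicates 1, 2 and 3, lowest and highest in the same libraries as Cdh5, and at most at 0.168 CPM in KC-LCs. The other 9 genes went the opposite way, at 58.0, 9.32 and 1.17 CPM. Of these, Kdr was at 19.2, 3.24 and 0.0856 CPM, Robo4 at 15.9, 0 and 0 CPM, Clec4g at 14.5, 3.58 and 0.342 CPM and Ptprb at 4.62, 0.0779 and 0.485 CPM. Tie1 had no read in sorted KCs, and Tek and Emcn were at most at 0.143 and 0.0519 CPM. In KC-LCs the 9 genes were at 45.0, 28.2 and 34.9 CPM, where Cdh5 was near 0. Nearly all of this was Kdr, at 39.7, 13.5 and 31.0 CPM, and Oit3, at 4.68, 13.3 and 3.73 CPM. Both were also read in every library of the other cultures. Robo4, Clec4g, Ptprb, Tek and Emcn had no read in KC-LCs. The part of endothelial RNA in the level of Cdh5 in sorted KCs was not tested.

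Marker genes of several other liver and blood cell types also separated sorted KCs from KC-LCs. Of all genes tested, 19.4% were called higher in sorted KCs and 14.4% lower. All 8 hepatocyte genes and all 8 B cell genes tested were called higher in sorted KCs, as were 6 of 6 T and NK cell genes tested, 5 of 6 monocyte genes and 1 of 1 granulocyte genes tested. Other lists did not go this way. Of 4 platelet genes tested, 2 were lower in sorted KCs and none higher, and 1 monocyte gene was lower. Of 5 endothelial genes tested 2 were higher, and none of 3 fibroblast and mesothelium genes was called. The hepatocyte list without Trf, which macrophages express, was at 105 to 241 CPM in sorted KCs and 0.192 to 0.328 CPM in KC-LCs. The B cell list was at 213 to 443 CPM against 16.2 to 29.8 CPM. Treml4 took 69.3% of the mean monocyte sum in sorted KCs, with 16231, 25948 and 25917 reads in replicates 1, 2 and 3. Cd22 took 86.3% of the mean B cell sum in sorted AMs. Expression of Treml4 and Cd22 by KCs themselves was not tested. The part of other cell types in the values of the 7 genes was not tested either. Each of the 7 genes was lower in sorted KC replicate 1, the library with the most T and NK cell and hepatocyte RNA, than in replicates 2 and 3, from 50.7% of the mean of these for Cdh5 to 82.4% for Folr2. Without replicate 1, all 7 were still called higher in sorted KCs, with log2 fold changes of 3.81 for Folr2 to 17.79 for Clec4f.

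**Figure D2:**
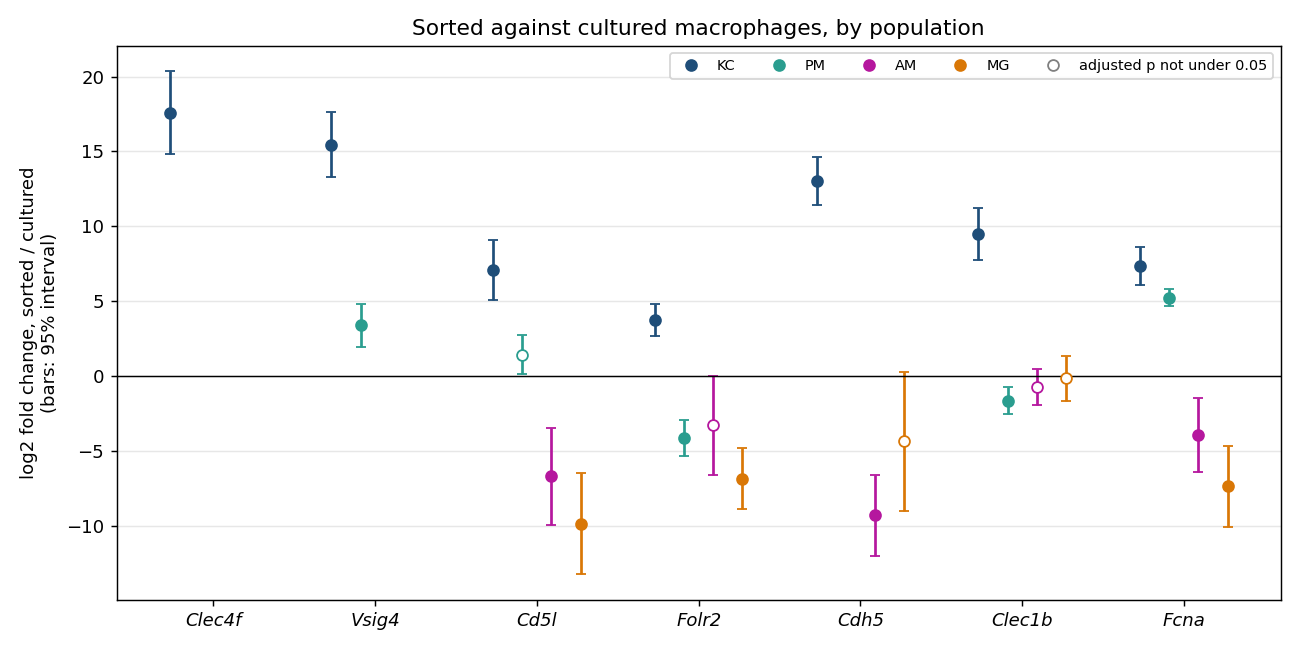
Log2 fold change of each gene between sorted and cultured libraries in the 4 populations, with 95% intervals, filled where the adjusted p was under 0.05 and left out where the gene was too low to be tested. The values are positive for all 7 genes in KCs, and those of Cd5l, Folr2 and Fcna are negative in MG. Fitted values of genes without reads in a group, such as Cdh5 in AMs, depend on the prior count of the model.

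In the other populations the genes moved in both directions. In PMs, 5 of the 7 could be tested. Fcna and Vsig4 were higher in sorted PMs (by 5.24 with an adjusted p of 3.03e-05 and by 3.40 with an adjusted p of 0.00629 on the log2 scale), while Folr2 and Clec1b were higher in PM-LCs, with log2 fold changes of -4.16 for Folr2 (adjusted p = 0.00129) and -1.65 for Clec1b (adjusted p = 0.0184). For Cd5l the difference of 1.43 did not pass the threshold (adjusted p = 0.0943), although its lowest sorted PM library lay above its highest PM-LC library, as libraries did not overlap for 48.8% of all genes. Of all genes tested in PMs, 12.0% were called higher in sorted PMs and 16.8% higher in PM-LCs, 28.8% in all. Without PM-LC replicate 2 Cd5l was called (log2 fold change 1.02, adjusted p = 0.00576), likewise without replicate 3 (1.92, adjusted p = 0.0451). The call of Clec1b was lost without sorted PM replicate 1 (adjusted p = 0.0897) or 2 (0.0768) and without PM-LC replicate 1 (0.0557). Fcna, Vsig4 and Folr2 kept their calls without any single library.

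In MG, 5 genes could be tested and 3 were called, all higher in culture: Cd5l (log2 fold change -9.87, adjusted p = 0.00369), Fcna (-7.37, adjusted p = 0.00438) and Folr2 (-6.86, adjusted p = 0.00244). Of all genes tested in MG, 46.4% were called, and 25.2% were called higher in culture. Cdh5 had a log2 fold change of -4.36 (adjusted p = 0.106) that turned to 0.31 (adjusted p = 0.785) without MG-LC replicate 1 and was called without replicate 2 (-4.92, adjusted p = 0.0462). The call of Cd5l, Fcna and Folr2 stayed without MG-LC replicate 1. Clec1b did not pass the test (adjusted p = 0.869, 95% interval of the log2 fold change from -1.64 to 1.37).

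In AMs, Cdh5, Cd5l and Fcna were higher in AM-LCs among 5 genes tested, with adjusted p-values of 0.00179, 0.00631 and 0.0185, at means of 2.38, 7.07 and 4.12 CPM in AM-LCs. Of all genes tested in AMs, 48.7% were called, and 25.8% were called higher in culture. All 3 stayed at a level far under that of sorted KCs. Since sorted AMs held no read of Cdh5, it was at least 26.5-fold higher in AM-LCs. Without AM-LC replicate 3 the calls of Cdh5 (adjusted p = 0.00455), Cd5l (0.00703) and Fcna (0.032) held. Fcna lost its call without sorted AM replicate 3 (adjusted p = 0.0708). Folr2 did not pass the test (log2 fold change -3.30, adjusted p = 0.0892) but was called without sorted AM replicate 2 (adjusted p = 0.0236), and Clec1b did not (log2 fold change -0.73, adjusted p = 0.282).

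The difference between sorted and cultured libraries was then compared between KCs and the mean of MG, PMs and AMs, in a model of all 24 libraries. All 7 genes had a larger difference in KCs, where 10.4% of all 17408 genes did. Genes chosen as KC markers have little room to fall where sorted cells hold few reads, as Clec4f and Cdh5 in sorted PMs and AMs. The count of 7 was thus largely set by the choice of genes and is no independent evidence. For Folr2 the log2 fold change was 3.70 in KCs and -4.77 as a mean over the other populations, which differed by 8.47 (SE 1.08, adjusted p = 4.06e-05). The difference was 10.27 for Clec1b (9.44 in KCs and -0.83 in the others, adjusted p = 3.15e-07), 9.32 for Fcna (7.32 in KCs, adjusted p = 4.39e-06) and 12.11 for Cd5l (7.07 and -5.04, adjusted p = 3.25e-05). For Clec4f, Vsig4 and Cdh5 the differences were 20.45, 14.75 and 19.30, but each rested on groups with few or no reads, so their size depends on the prior count. Without AM-LC replicate 2, which held all reads of Clec4f and Vsig4 in AM-LCs, neither gene was called (adjusted p = 1.0 for both). All 7 were called without sorted KC replicate 1 and without AM-LC replicate 3. Clec4f also lost its call without MG-LC replicate 3 (adjusted p = 0.179) or PM-LC replicate 2 (adjusted p = 0.0944). In comparisons with single populations, chosen after seeing the data, all 7 had a larger difference in KCs than in AMs (10.7% of all genes) and MG (12.9%), and 6 had a larger one than in PMs (8.22%). The exception was Fcna against PMs, by 2.08 (SE 0.91, adjusted p = 0.139), which passed without MG-LC replicate 1 (adjusted p = 0.042). Against MG, Clec4f (adjusted p = 0.367) and Vsig4 (0.0874) lost their calls without MG-LC replicate 3. Against PMs, Clec4f lost it without PM-LC replicate 2 (0.252) and Cdh5 without replicate 3 (0.0793), and against AMs Clec4f and Vsig4 lost it without AM-LC replicate 2 (adjusted p = 1.0 for both).

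Among the sorted populations, 6 of the 7 genes were higher in KCs than in each of MG, PMs and AMs, where 5.84% of all 15732 genes tested were. Against PMs alone 20.0% of all genes were called higher in KCs, against AMs alone 24.2% and against MG alone 24.7%. The closest population was PMs. Against PMs the log2 fold change was 1.04 for Fcna (95% interval 0.13 to 1.95, adjusted p = 0.0708), 2.07 for Vsig4 (adjusted p = 0.00243), 2.22 for Cd5l (adjusted p = 0.000671) and 4.55 for Folr2 (adjusted p = 7.73e-05). For Clec1b sorted KCs had 129-fold the mean of sorted PMs (adjusted p = 3.27e-07). Fcna was the gene that missed the threshold, although its lowest sorted KC library, at 2424 CPM, lay above its highest sorted PM library, at 1687 CPM. Without sorted KC replicate 1 all 7 genes were called against each population, Fcna against PMs with an adjusted p of 0.016, and without sorted AM replicate 2, which enters the shared estimate of spread, it was 0.00731. Against sorted AMs, Clec1b was the closest of the 7, with 11.6-fold the mean of AMs (log2 fold change 3.54, adjusted p = 7.78e-06). Against PMs the fitted log2 fold changes of Clec4f and Cdh5 were 17.16 and 16.08, from 8 and 0 reads in sorted PMs.

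Between the cultures, none of the 7 genes was called higher in KC-LCs than in the mean of the other cultures by edgeR, limma-voom or DESeq2. Clec4f was too low to be tested there, and no member was higher at an unadjusted p under 0.05. Of all 14813 genes tested, 0.0135% were called higher in KC-LCs. The log2 fold change was 0.53 for Folr2 (95% interval -0.86 to 1.91) and 0.30 for Fcna (-0.89 to 1.496). It was -1.70 for Cd5l (-4.02 to 0.62), -3.40 for Vsig4 (-6.25 to -0.56), -3.61 for Clec1b (-5.19 to -2.02) and -6.05 for Cdh5 (-10.36 to -1.74), with adjusted p-values from 0.0922 to 0.473 in edgeR. Since 3 of these intervals lie under 0 while the adjusted p does not pass, neither a lower level in KC-LCs nor an equal one was shown by this test. DESeq2 called Vsig4 (adjusted p = 0.0367) and Clec1b (adjusted p = 1.16e-07) lower in KC-LCs, and edgeR called Clec1b without MG-LC replicate 2 (adjusted p = 0.0439).

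**Figure D3:**
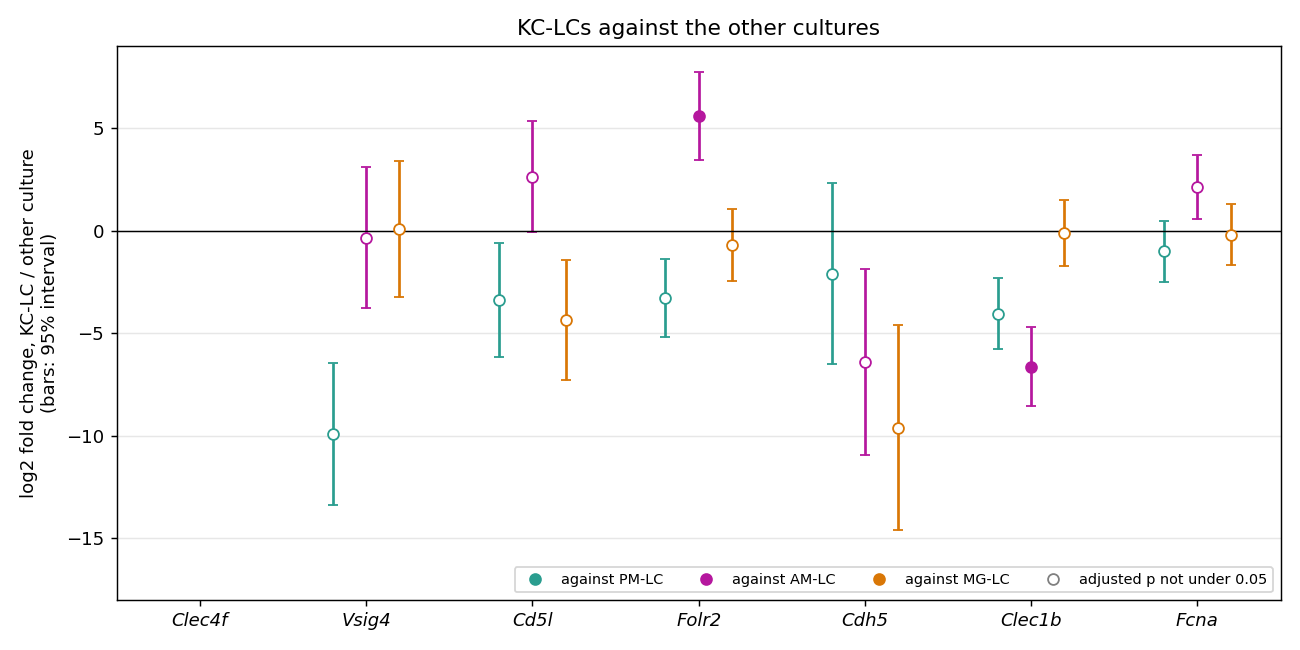
Log2 fold change of each gene in KC-LCs against PM-LCs, AM-LCs and MG-LCs, with 95% intervals, filled where the adjusted p was under 0.05; Clec4f was too low to be tested. Only Folr2 (5.59) and Clec1b (-6.64), both against AM-LCs, passed.

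PM-LCs shared the growth factor and the oxygen level of KC-LCs. Cd5l, Folr2, Clec1b, Vsig4 and Fcna were lower in all 3 KC-LC libraries than in all 3 PM-LC libraries, where 19.5% of all genes tested had no overlap in either direction. None was called by edgeR over the 12 cultured libraries, where 0.108% of all genes were, whereas DESeq2 called Vsig4 (adjusted p = 8.83e-11), Clec1b (1.51e-06) and Folr2 (0.000578). Vsig4 came closest, with a log2 fold change of -9.93 (95% interval -13.38 to -6.47, adjusted p = 0.0507), which passed without MG-LC replicate 1 (0.021), 2 (0.034) or 3 (0.034) and without PM-LC replicate 2 (0.0352). Clec1b had -4.06 (adjusted p = 0.0702), passing without MG-LC replicate 1 (0.0461), and Folr2 had -3.30 (adjusted p = 0.133). When only the 6 KC-LC and PM-LC libraries were fitted, an alternative chosen after seeing the data, Vsig4 (adjusted p = 0.0218), Clec1b (0.0456) and Folr2 (0.0481) were called lower in KC-LCs, where 1.14% of all 13126 genes were called. Fcna and Cd5l were not called in that fit either.

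Against AM-LCs, KC-LCs had more Folr2 (log2 fold change 5.59, SE 0.97, adjusted p = 0.00984) and less Clec1b (-6.64, SE 0.88, adjusted p = 0.00359), where 7.64% of all genes were called. The call of Folr2 was lost without AM-LC replicate 2 (adjusted p = 0.0523). Cdh5 was called lower in KC-LCs without MG-LC replicate 1 (adjusted p = 0.0239) or 2 (0.0393), and Fcna higher without MG-LC replicate 1 (0.0133). Against MG-LCs no member was called, nor was any other gene by edgeR (0.0%), while 15.4% of all genes and 2 of the 7, Cd5l and Cdh5, had an unadjusted p under 0.05. DESeq2 called Cd5l there (adjusted p = 0.00923). All 3 MG-LC libraries lay above all 3 KC-LC libraries for Cd5l and Cdh5. Without MG-LC replicate 2, the adjusted p of Cdh5 was 0.0292 in edgeR.

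The wider KC program is given from lists of genes known from the field. Of 18 other KC genes, 14 were called higher in sorted KCs than in KC-LCs and 1 lower, with a median log2 fold change of 7.45, beside the 19.4% and 14.4% of all genes called in these directions. The complement gene C6 (16.69), the scavenger receptor gene Marco (13.78) and the potassium channel gene Kcna2 (13.37) had the largest differences, from means of 1189, 1526 and 204 CPM in sorted KCs to 0.00800, 0.109 and 0.0166 CPM in KC-LCs. Timd4, whose protein was used in the KC gate, went from 805 ± 325 to 0.132 ± 0.127 CPM (SD, n = 3; log2 fold change 12.57). Id1, a target of BMP signalling, was the gene that was lower, at 46.6, 65.1 and 37.1 CPM in sorted KCs and 234, 193 and 129 CPM in KC-LCs. The summed level of the 18 genes was 8516 CPM in sorted KC replicate 1, and 20315 and 20501 CPM in replicates 2 and 3.

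Of 28 transcription factor and niche signal genes, 11 were higher in sorted KCs, 3 were lower and 14 did not pass the test, with a median of 0.81. These were 39.3% and 10.7% of the list, beside 19.4% and 14.4% of all genes. Spic, Nr1h3, Id1 and Id3 also stand in the list of other KC genes, so their results enter both lists. Spic was at 116, 248 and 142 CPM sorted and 0.0480, 0.523 and 1.44 CPM in KC-LCs (log2 fold change 8.00, adjusted p = 0.0016). Nr1h3, encoding LXR-alpha, was at 540, 690 and 656 CPM sorted and 22.3, 51.7 and 49.4 CPM cultured (3.97, adjusted p = 0.000675), and its partner Rxra followed with 2.87. Id3 was at 629, 669 and 452 CPM sorted and 804, 1165 and 853 CPM in KC-LCs and did not pass the test (-0.66, adjusted p = 0.109). The genes called lower were Id1, the BMP co-receptor gene Eng (-1.93) and the Notch effector gene Rbpj (-1.72). In PMs, where Folr2 rose in culture, Nr1h3 went from 5.61, 4.45 and 6.21 CPM to 122, 56.2 and 44.3 CPM (-3.76, adjusted p = 0.000857) and Id3 from 5.11 to 639 CPM as means of 3 libraries (-6.96). The link between these genes was not tested.

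Of 11 LXR target genes, 3 were higher in sorted KCs (Scd1, 5.73; Abca1, 2.60; Mylip, 1.87), 1 was lower (Lpl, -1.58) and 7 did not pass the test. These shares, 27.3% and 9.09%, lay near the 19.4% and 14.4% of all genes. Apoe, chosen after its values were seen, took 86.9% of the list's summed level in sorted KCs and was at 15986, 19630 and 19499 CPM there. In KC-LCs it was at 265, 14106 and 15495 CPM (log2 fold change 0.91, adjusted p = 0.544), so that replicate 1 stood far under the other KC-LC libraries. Without KC-LC replicate 1, all 7 identity genes were still called higher in sorted KCs. Of 22 paralogues of the 7 genes, 19 could be tested and 7 were higher in sorted KCs and 4 lower (36.8% and 21.1%, beside 19.4% and 14.4% of all genes), with a median of 0.98. Among C-type lectin genes, Clec4d rose in KC-LCs from 4.64 to 430 CPM (-6.50) and Clec4e from 3.42 to 131 CPM (-5.23), both as means of 3 libraries. Clec4a3 (2.86) and Clec4n (2.00) were higher in sorted KCs. Clec9a (8.08) was also higher, with its highest level in sorted KC replicate 1. Vsir, an immunoglobulin superfamily gene like Vsig4, was lower in sorted KCs (-1.14).

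**Figure D4:**
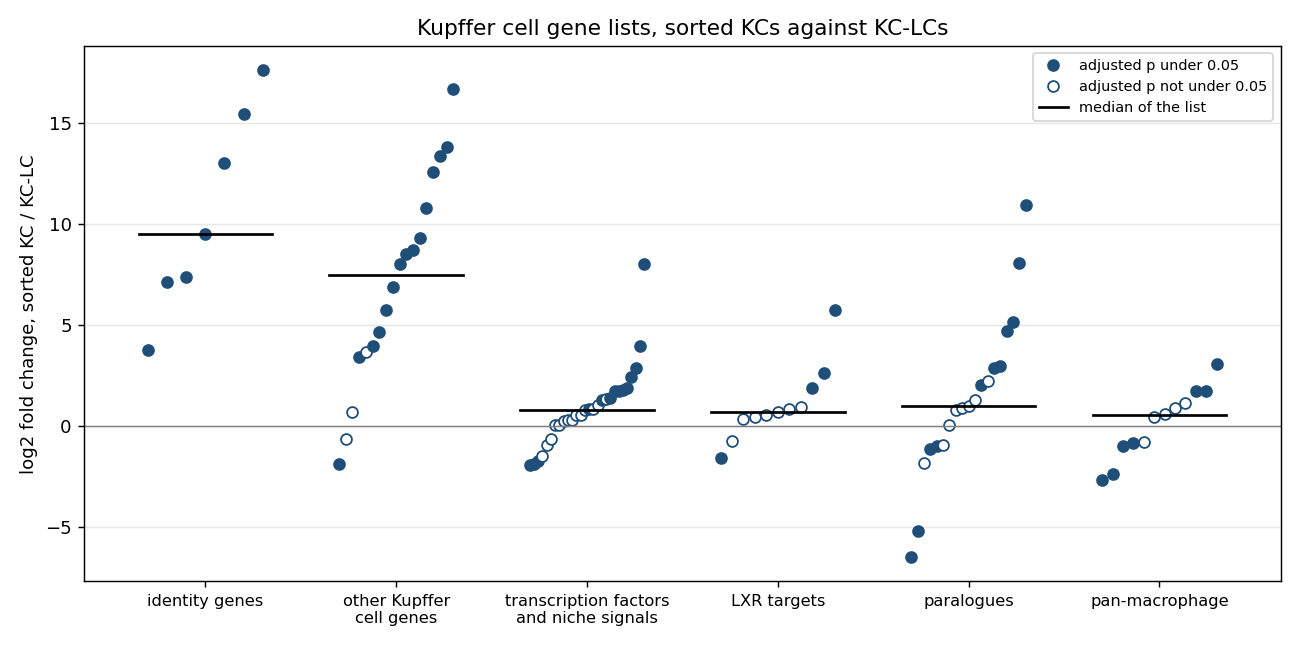
Log2 fold change between sorted KCs and KC-LCs for 6 lists of genes, each point a gene, filled where the adjusted p was under 0.05, with a line at the list's median. All 7 identity genes lie between 3.74 (Folr2) and 17.60 (Clec4f), other KC genes have a median of 7.45, and the other lists have medians of 0.52 to 0.98 with genes on both sides of 0. Some genes are shared between lists.

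Over the 8 group means of log2 CPM, the genes most like Clec4f were C6 (Pearson r = 0.995), Serpina3k (0.995) and Ahsg (0.992), of which the last 2 are genes of hepatocyte secretion at 22.8 and 21.1 CPM in sorted KCs. Genes like Vsig4 were Timd4 (0.962) and Cxcl13 (0.956), both of which were also present in sorted PMs. Cd5l was most like Iigp1 (0.965), Phf11a (0.960) and Ephx1 (0.959), and Folr2 was most like Hyal2 (0.990), Gpr65 (0.988) and Irf7 (0.966). For Cdh5 these genes were Snrpn (0.992), Slc16a9 (0.967) and Btbd11 (0.962), for Clec1b Gm49405 (0.945), Ifi30 (0.941) and Ddhd1 (0.922), and for Fcna Clec2i (0.967), Ifi203-ps (0.965) and Ncoa7 (0.959). These values describe 8 means that share libraries and depth, out of 10720 genes compared, and carry no test. They do not depend on the size of a change. Hyal2 ran only from 27.2 to 46.1 CPM over the 8 means, where Folr2 ran from 0.172 to 1120.5 CPM. Gm49405 ran from 6.40 to 17.1 CPM, where Clec1b ran from 0.683 to 476 CPM. Among the members themselves, r was highest between Cd5l and Fcna (0.928) and between Cd5l and Folr2 (0.926) and lowest between Folr2 and Clec1b (0.047).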

How the data were processed

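Total RNA was extracted with the RNeasy Micro kit, and libraries were made with the SMARTer Ultra Low Input and Nextera XT kits and sequenced as single reads. The authors deposited a table of whole-number counts for each gene and library, without normalization. The paper names Trimmomatic, STAR and mm10, whereas the submitters' processing notes list Trimmomatic 0.36, STAR 2.5.2b and hg19. The identifiers in the table are those of mouse genes, and the strand setting of the counting is not given in the sources used here. Symbols, coordinates and exon lengths were taken from GENCODE by Ensembl identifier (45143 matched, 563 did not), and promoter windows from RefSeq, which held 6 of the 7 genes.

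Counts were tested in R 4.3.3 with edgeR 4.0.16 (quasi-likelihood, two-sided, TMM factors, filterByExpr with a minimum count of 10), and p-values were adjusted by Benjamini-Hochberg over all genes tested. A gene was called at an adjusted p under 0.05. Sorted and cultured libraries were compared within each population, sorted populations over 12 libraries, cultures over 12 libraries, and differences between populations over all 24. Intervals are at 95%. The SE of an edgeR log2 fold change is its absolute value divided by the square root of the quasi-likelihood F statistic. Intervals of log2 fold changes were built from that SE. Both hold no information beyond the fold change and its p-value. Counting intervals are exact Poisson intervals of the reads in the lower group, and intervals and floors cover counting error only. P-values measure the spread between libraries; libraries of a group differed beyond counting noise. Alternatives were limma-voom (limma 3.58.1), DESeq2 1.42.0, RLE factors, no filter, 1 CPM in 3 libraries, an absolute log2 fold change above 1.5, replicate number as a block, all 24 libraries in 1 model, and leaving out each library. The procedure was tested on simulated data with smaller fold changes than those of most members between sorted KCs and KC-LCs. That test does not cover fits of such size.

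The members and the gene lists were chosen with earlier results of these data known. All 7 members are given in every library. Of each other list, up to 3 called genes with the largest positive and 3 with the largest negative log2 fold change between sorted KCs and KC-LCs and at least 10 CPM in either group are named, besides Nr1h3, Id1, Id3, Spic, Timd4 and Marco, and for each member the 3 genes with the highest correlation, of which 1 is not reported here. Marker genes named beside a member were added after their values were seen.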

Additional observations from a re-analysis of the deposited data

Results flagged for a closer look

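The difference between sorted and cultured libraries differed between KCs and the mean of MG, PMs and AMs for all 7 genes, by a test of the difference itself in edgeR. On the log2 scale it was larger in KCs by 20.45 for Clec4f, 19.30 for Cdh5, 14.75 for Vsig4, 12.11 for Cd5l, 10.27 for Clec1b, 9.32 for Fcna and 8.47 for Folr2. Of all 17408 genes tested, 10.4% were called in this direction. The genes were chosen as KC markers and were low in sorted MG and, but for Clec1b, in sorted AMs. The direction was therefore largely set by the choice of genes. The sizes for Clec4f, Cdh5 and Vsig4 rested on groups with few or no reads. Without AM-LC replicate 2, neither Clec4f nor Vsig4 was called. Clec4f also lost its call without MG-LC replicate 3 or PM-LC replicate 2.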

How the results depend on the processing

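All 7 genes were called higher in sorted KCs than in KC-LCs under every alternative run, and in 7 of 7 when each library was left out. Leaving out each library moved the number of genes called between 3 and 4 in MG, 3 and 5 in PMs, 2 and 4 in AMs, 6 and 7 among the sorted populations and 5 and 7 for the difference between KCs and the other populations, and left it at 0 in the cultures. With limma-voom and DESeq2, 2 genes were called in MG, 5 in PMs, 4 in AMs and 7 among sorted populations. In MG, DESeq2 gave no adjusted p for Cd5l and Cdh5, and Cdh5 had none in the cultures either. For Fcna against sorted PMs, limma-voom (adjusted p = 0.000965) and DESeq2 (adjusted p = 0.00799) made the call, and its adjusted p reached 0.208 at most. Cd5l in PMs was called by limma-voom (0.0477) and DESeq2 (0.0173), Fcna in MG lost its call with limma-voom (0.0579), Folr2 in AMs gained one with limma-voom (0.036) and DESeq2 (0.0441), and Vsig4 in KC-LCs against PM-LCs gained one with RLE factors (0.049), without the filter (0.016) and with the filter at 1 CPM (0.0401).

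Whether replicate numbers pair the libraries is not stated. In KCs the deviations of same-numbered sorted and cultured libraries correlated at 0.011, -0.001 and 0.029. Over all populations these values ran from -0.104 in PMs to 0.056 in MG. Shared animals need not leave a common deviation in sorted and cultured cells, so these values cannot decide the question. With replicate number as a block, all 7 genes were still called in KCs, Clec4f with a log2 fold change of 17.68 (adjusted p = 0.0023).

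Values that changed sign were uncalled before and after. On the log2 scale, Clec1b in MG was 0.056 with limma-voom and 0.056 with the block on replicate number, and ranged from -0.458 to 0.598 when libraries were left out. Cdh5 in MG ranged from -4.922 to 0.305 and Clec1b in AMs from -1.116 to 0.165. In KC-LCs against MG-LCs, Vsig4 was -0.002 with DESeq2 and ranged from -1.841 to 1.891, Folr2 from -1.12 to 0.365 and Clec1b from -1.066 to 0.608, and Fcna was 0.221 with limma-voom and ranged from -0.702 to 0.722. Against AM-LCs, Vsig4 was 0.034 with limma-voom and ranged from -2.248 to 4.127. Against the mean of the cultures, Fcna ranged from -0.164 to 0.621. Causes were not tested. Of 24 libraries, those without a read of a gene limit its level only to the floor of 3 reads.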
